A study of Mus musculus with 583 samples.

Results

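Smart-seq2 and SCRB-seq were compared on the same mouse embryonic stem cell line, and the 2 methods gave different levels for 4636 of the 14293 genes tested. The comparison takes the 157 cells of Smart-seq2 libraries A (80 cells) and B (77 cells) and the 84 cells of SCRB-seq libraries A (39 cells) and B (45 cells). These are 241 of the 583 cells of the study, chosen by the names of their columns in the count table. The counts of all cells of a library were summed, so that a library was the unit of replication, and the spread between libraries was estimated over all 12 libraries of the 6 methods (2 libraries a method).

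All groups used here are J1 cells, a mouse embryonic stem cell line, grown in 2i/LIF. LIF is a cytokine that acts through STAT3, and 2i is a pair of inhibitors of MEK and GSK3 that holds the cells in naive (ground state) pluripotency. No genotype, treatment or time differed between the groups, and the labels name no further allele or agent. The labels describe the SCRB-seq cells as single cells sorted by flow cytometry and do not say how the Smart-seq2 cells were isolated. The labels also do not say whether libraries A and B of a method came from separate cultures, so p-values here measure only the spread between libraries, which may be technical.

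Both methods start from oligo(dT)-primed reverse transcription of a single cell, use template switching to make amplifiable complementary DNA and amplify it by PCR. Smart-seq2 then fragments the whole complementary DNA, so that its reads come from along the transcript and a long transcript gives more reads than a short one at the same number of molecules. SCRB-seq puts a cell barcode and a unique molecular identifier (UMI, a random tag for each captured molecule) at the poly(A) end, sequences only that end and counts tags, so that a molecule counts once whatever its length. A Smart-seq2 count is therefore taken as a read and an SCRB-seq count is a UMI, and a fold change between them is a difference in a gene's share of the counts, not in its number of molecules. Because counts were summed over cells, fewer cells with a gene's RNA and less RNA per cell cannot be told apart in the sums.

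The Smart-seq2 libraries held 34984056 and 32104987 counts of mouse genes and the SCRB-seq libraries 2283008 and 2156307. The median cell held 439870 and 437539 counts in Smart-seq2 against 49576 and 44030 in SCRB-seq, with a coefficient of variation of the totals of 7.50% and 14.6% against 53.5% and 38.8%. At 10000 counts drawn from each cell, the median number of genes with a count was 3828 and 3696 in Smart-seq2 and 3787 and 3833 in SCRB-seq, so the libraries of the methods overlapped. At 583302 counts a library, the median absolute log2 ratio of library A to B over 5569 genes was 0.226 for Smart-seq2 and 0.350 for SCRB-seq, against 0.388 to 0.562 in the other methods. Smart-seq2 A and B shared 66 well names and SCRB-seq A and B shared 21 barcodes. No doublet caller was run, and 6 SCRB-seq cells with more than 2 times their library's median count are left out in an alternative fit. The Smart-seq2 libraries stood apart from each other at Gm42418, annotated as a long noncoding RNA gene on chromosome 17. It was at 2585 CPM in A and 53447 CPM in B against 60499 and 82479 CPM in SCRB-seq, and did not pass the test. Of the 31-base words of its longest transcript, 96.3% also occur in a transcript of another gene. The part of this shared sequence in its values was not tested. CPM here are a gene's counts scaled to a common total of mouse counts per library after TMM scaling, a correction for differences in composition between libraries.

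The defining genes of embryonic stem cells were present with both methods. The 40 genes of naive and core pluripotency summed to 10536 and 10606 CPM in Smart-seq2 and to between 10356 and 11481 CPM in SCRB-seq. Of 9 primitive endoderm genes, 5 were under 1 CPM in all 4 libraries, and the list summed to at most 5.10 CPM in Smart-seq2 and 7.44 CPM in SCRB-seq. Among mesendoderm genes Cer1 and Lhx1, and among neural genes Neurog2, had no count in any of the 4 libraries. Other members had counts. The mesendoderm list summed to 19.96 to 21.63 CPM in Smart-seq2 and 9.304 to 17.35 CPM in SCRB-seq. The neural list summed to 89.27 to 133.4 CPM against 59.54 to 62.3 CPM, and the trophectoderm list to 109.7 to 122 CPM against 56.29 to 65.86 CPM. In each of these lists the Smart-seq2 sums lay above the SCRB-seq sums. Of 13 fibroblast feeder genes, 7 were under 1 CPM and Dcn, Lum and Postn had no count, while Fn1 and Lgals1 made up most of the sum of 534 to 543 CPM in Smart-seq2 and 478 to 645 CPM in SCRB-seq. No gene of the primitive endoderm, trophectoderm, mesendoderm, neural and feeder lists passed the test between the methods. Only 1 of 9, 7 of 10, 3 of 8, 4 of 8 and 6 of 13 members, in that order, had enough counts to be tested. Among all genes tested 32.4% passed.

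Some genes that differ most between the methods are near-copies of other genes, and 3 pairs are shown because their members recur in the results. Rpl18-ps2 (chromosome 6, 128313357 to 128313923, plus strand, GRCm38) is a processed pseudogene, an intronless copy of an mRNA pasted into the genome, and matches 563 of 567 aligned bases (99.3%) of its parent Rpl18 (chromosome 7, 45715457 to 45720836), which encodes a protein of the large ribosomal subunit. Stretches of 60 bases are given 5′ to 3′ in transcript sense from GENCODE M21 transcripts, with a base in capitals where the pair differs.
Rpl18-ps2: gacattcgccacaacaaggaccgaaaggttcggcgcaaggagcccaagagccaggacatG
Rpl18: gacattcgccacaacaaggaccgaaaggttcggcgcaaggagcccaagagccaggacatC
Actg1 (chromosome 11, 120345690 to 120348542, minus strand) encodes cytoplasmic gamma-actin, and the processed pseudogene Gm12715 (chromosome 4, 103563402 to 103564529, plus strand) matches it at 1124 of 1128 bases.
Actg1: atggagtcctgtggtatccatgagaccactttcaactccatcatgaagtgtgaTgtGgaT
Gm12715: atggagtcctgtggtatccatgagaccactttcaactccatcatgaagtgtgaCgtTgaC
The mitochondrial gene mt-Nd4l (chromosome M, 9877 to 10173, plus strand), a subunit of complex I, is matched at all 294 bases by Gm10222 (chromosome 1, 24612407 to 24612700, minus strand), a nuclear copy of mitochondrial DNA, so 1 sequence stands for both.
mt-Nd4l: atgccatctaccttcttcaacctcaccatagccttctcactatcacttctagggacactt
Beside these pairs, a share of 31-mers was used for every gene: the percentage of the 31-base words of its longest transcript that also occur, on either strand, in a transcript of another gene. Genes with under 10% shared 31-mers and under 10% exon overlap on either strand are called genes of little shared sequence below. The share is printed for only some of the named genes, so a gene without it is not thereby free of shared sequence. Genes higher or more often detected in Smart-seq2 share sequence too. The share with 1 other gene was 35.5% for Sephs2, 23.8% for Usf1 and 15.3% for Bax. It was 17.6% for Pou5f1, 15.9% for Psmd13 and 11.4% for Ruvbl2, which overlap that gene on the other strand.

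Of 14293 genes tested, 4636 (32.4%) differed between the methods, 1426 (9.98%) higher in Smart-seq2 and 3210 (22.5%) lower, with edgeR's quasi-likelihood test at a Benjamini-Hochberg adjusted p under 0.05. Nearly all genes higher in Smart-seq2 were protein coding (1399 of 1426, 98.1%), while the genes lower in Smart-seq2 were mostly processed pseudogenes (1951 of 3210, 60.8%), with 1016 protein-coding genes among them. The median log2 fold change over all genes tested was −0.06. Both Smart-seq2 libraries lay above both SCRB-seq libraries for 5169 genes (36.2%) and below both for 5421 genes (37.9%), and an exact permutation test of 2 against 2 libraries for a single gene cannot go below 0.333. Of the calls, 457 of the 1426 higher and 1743 of the 3210 lower were also made when any 1 of the 4 libraries was left out. The split between the directions moved with the analysis. Genes higher in Smart-seq2 were 30.8% of the calls here, 47.8% (3117 higher and 3410 lower) when only the 4 libraries entered the fit, 56.7% (2628 and 2006) with limma on the mean log2 CPM over cells, and 48.8% (1708 and 1789) after a trend with transcript length was removed. That trend was a smooth curve of log2 fold change on length over all tested genes with a length. Among the 1211 genes of up to 500 nt, 952 were processed pseudogenes (median −6.30). The shift given to short genes of any class therefore rests mostly on pseudogenes, and its removal does not isolate an effect of length.

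The largest rises in Smart-seq2 were led by a sodium-phosphate cotransporter. Slc34a2 (chromosome 5, 53038081 to 53071664) stood at 12248 and 19676 CPM in Smart-seq2 A and B and at 6.68 and 1.86 CPM in SCRB-seq (log2 fold change 11.85, SE 1.55, adjusted p = 4.20e-04). All 157 Smart-seq2 cells had counts for it, at a median of 13234 and 16377 CPM a cell and a highest value of 282620 CPM, whereas 12 of 39 and 4 of 45 SCRB-seq cells had any. The pyroptosis gene Gsdme had 75.8 and 88.9 CPM in Smart-seq2 and 1 count in all of SCRB-seq, which put the ratio at 360 with a 95% counting interval from 64.6 to 14220 (adjusted p = 8.87e-07). Gm10800, a predicted gene, had 8.27 and 9.76 CPM against 0.445 and 0 CPM, also 1 count, for a ratio of 39.4 (95% counting interval 7.05 to 1558), and its call was lost when libraries were thinned to the depth of the shallowest. Intervals and floors of this kind cover counting error only, since PCR copies of a molecule are not independent reads.

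Ptk7, a receptor-like protein of planar cell polarity, was at 134 and 119.5 CPM in Smart-seq2 and at 2.67 and 1.40 CPM in SCRB-seq (log2 fold change 5.95, SE 0.735, adjusted p = 5.10e-06). Cmtm7, a membrane protein of the chemokine-like factor family, was at 75.1 and 97.1 CPM against 1.34 and 1.40 CPM (5.97, SE 0.676, adjusted p = 1.82e-06). Sdc4, a heparan sulfate proteoglycan, was at 280.3 and 368 CPM against 19.13 and 23.7 CPM (3.92, SE 0.506, adjusted p = 8.41e-06). In each of these genes the groups were far apart relative to the gap between libraries of a method. Trh, the precursor of thyrotropin-releasing hormone, was at 762 and 1009 CPM against 38.3 and 47.9 CPM (4.36, adjusted p = 0.00278). Sephs2, which makes selenophosphate for selenoproteins and is itself a selenoprotein, was at 178 and 170.3 CPM against 4.005 and 8.84 CPM (4.76, adjusted p = 9.67e-06), and Usf1, an E-box transcription factor, was at 93.4 and 100.3 CPM against 4.45 and 6.51 CPM (4.14, adjusted p = 2.63e-05). Eif5al3-ps, a pseudogene named for the initiation factor eIF5A, was the only pseudogene among the 10 largest rises, at 71.3 and 88.6 CPM against 1.78 and 8.37 CPM.

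**Figure D1:**
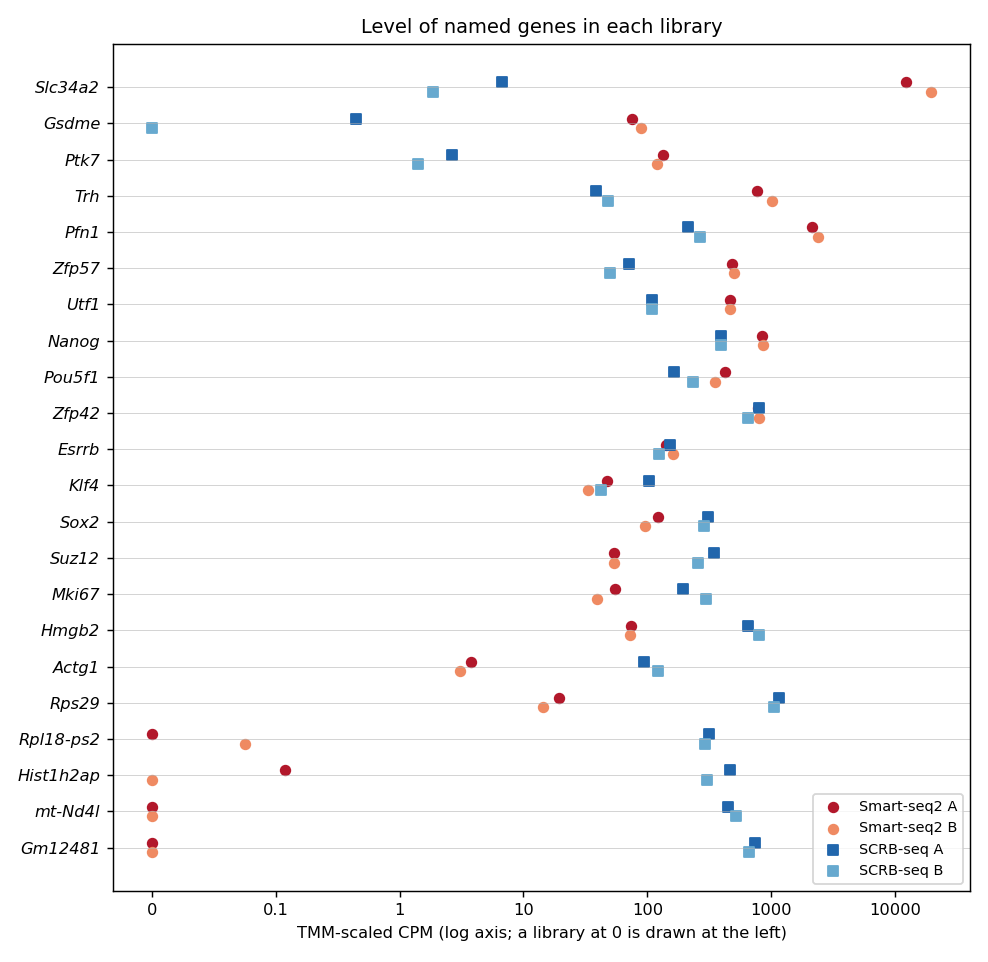
TMM-scaled CPM (log axis, a library at 0 drawn at the left edge) of 22 genes in Smart-seq2 A and B (circles) and SCRB-seq A and B (squares). Slc34a2 was at 12248 and 19676 CPM in Smart-seq2 and at 6.68 and 1.86 CPM in SCRB-seq, while Zfp42 and Esrrb overlapped and Gm12481 and mt-Nd4l had no Smart-seq2 count.

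The largest falls were genes with no or almost no Smart-seq2 count at all, in spite of the greater depth of those libraries. Gm12481 (chromosome 4, 43664043 to 43664339, plus strand), a processed pseudogene that lies antisense within Fam221b, had 0 counts in both Smart-seq2 libraries and 744 and 668 CPM in SCRB-seq, which puts it at least 18276-fold lower in Smart-seq2 (against a floor of 3 counts over the group). Gm6654, antisense within the Mediator gene Med21, had 0 counts against 367 and 442 CPM (at least 10435-fold lower). Gm5812, antisense within Tulp4, had 0 counts against 319 and 264 CPM (at least 7559-fold lower). The host gene of Gm12481 was also lower, with Fam221b at 0.0477 and 0.0841 CPM in Smart-seq2 and at 10.2 and 10.7 CPM in SCRB-seq (log2 fold change −7.09, adjusted p = 1.46e-05). The other host genes did not pass: Med21 was at 59.5 and 73.3 CPM in Smart-seq2 and at 93.4 and 82.3 CPM in SCRB-seq (adjusted p = 0.598), and Tulp4 at 3.69 and 4.63 CPM against 10.7 and 11.2 CPM (adjusted p = 0.154). Snora73b, a small nucleolar RNA on the other strand of Gm17300, had 0 counts against 189 and 188 CPM (at least 4882-fold lower). Snhg3, whose introns give rise to such small RNAs, was at 1.14 and 1.35 CPM against 201 and 214 CPM (log2 fold change −7.37, adjusted p = 4.93e-10), whereas Gm17300 on the opposite strand was higher in Smart-seq2, at 24.8 and 22.6 CPM against 5.79 and 8.37 CPM (1.75, adjusted p = 0.0263). The counting of the Smart-seq2 reads is not given in the sources used here, including whether it used the strand, so values of genes that overlap on opposite strands are uncertain. Over all genes tested, the 59 with over 90% of their exons covered on the other strand had a median log2 fold change of −5.85, with 1 higher and 38 lower. Only 9 of the 59 were protein coding (6 lower), and processed pseudogenes had a median of −5.74 as a class. Among protein-coding genes the median was 0.27 with no such cover, 0.24 with over 10 to 50% and −0.45 in the 83 with over 50 to 90%. The part of the overlap in these values was not tested.

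The rest of the largest falls included a mitochondrial gene and genes that share sequence with ribosomal protein or elongation factor genes. mt-Nd4l had 0 counts in Smart-seq2 and 446 and 516 CPM in SCRB-seq (at least 12429-fold lower). Rpl18-ps2, shown above beside its parent, was at 0 and 0.0561 CPM in Smart-seq2 and at 313 and 289.8 CPM in SCRB-seq (log2 fold change −12.96, adjusted p = 1.00e-09), while Rpl18 was at 200.5 and 175 CPM against 420.5 and 372 CPM (−1.08, adjusted p = 0.0165). The call of Rpl18 was lost without any 1 of the 4 libraries. Gm9701, which shares 40.0% of its 31-mers with the ribosomal protein gene Rps23, had 0 counts against 191 and 167 CPM (at least 4641-fold lower). Gm26384, a small RNA gene that shares 62.5% of its 31-mers with the elongation factor gene Eef1a1, was at 0 and 0.0280 CPM against 277 and 214 CPM, while Eef1a1 itself was at 1548 and 1724 CPM against 1508 and 1864 CPM (−0.04, adjusted p = 0.949). Rpl21-ps8 was at 0.0238 and 0.0280 CPM against 359.5 and 360.0 CPM (−13.22, adjusted p = 1.22e-10), and ENSMUSG00000083840, which has no symbol in the annotation used, was at 0.0238 and 0.0280 CPM against 411 and 420.1 CPM (−13.43, adjusted p = 1.22e-10).

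Processed pseudogenes as a class were lower in Smart-seq2. Of 2172 tested, 2 were higher and 1951 lower, with a median log2 fold change of −5.74 against −0.06 over all genes, and 1304 of the 1951 were lower in every fit with 1 of the 4 libraries left out. The class held 0.623% and 0.597% of the counts of the Smart-seq2 libraries and 10.2% and 11.2% of those of the SCRB-seq libraries. The 239 pseudogenes of ribosomal proteins held 0.0570% and 0.0548% against 2.04% and 2.12%, and of the 213 tested 205 were lower and none higher (median −6.01). Among them Rps26-ps1 was at 0.739 and 0.953 CPM against 1059 and 1119 CPM (−10.31, SE 0.472, adjusted p = 8.08e-11), and Rpl10a-ps1 at 14.2 and 16.1 CPM against 1468 and 1148 CPM (−6.43, SE 0.538, adjusted p = 4.07e-08). Of the 331 processed pseudogenes of little shared sequence, 281 were lower and none higher, with a median of −5.92. The authors' treatment of reads that match several genes is not given in the sources used here, and its part in the result was not tested. With the length trend removed 77 were higher and 743 lower (median −1.90). Small RNA genes held 0.0894% and 0.0712% of counts against 0.337% and 0.354%, and 53 of the 137 tested were lower against 1 higher (median −1.88, but 1.94 with the length trend removed).

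Protein-coding genes leaned the other way. Over 11368 protein-coding genes the median log2 fold change was 0.26, with 1399 higher and 1016 lower, and over the 8605 of little shared sequence it was 0.36, with 1146 higher and 489 lower. Over all 9220 genes of little shared sequence, of any class, 1153 were higher and 830 lower, and a fit on such genes alone, which tested 9178 of them, gave 655 higher and 855 lower. By shared 31-mers the median fell from 0.44 in the 3703 protein-coding genes with none to −1.03 in the 432 with over 50 to 90% (25 higher and 165 lower) and −3.88 in the 114 with over 90% (6 higher and 68 lower). Actg1 is such a gene: it was at 3.74 and 3.08 CPM in Smart-seq2 and at 93.9 and 121 CPM in SCRB-seq (−4.97, SE 0.4001, adjusted p = 2.36e-08), and its copy Gm12715 was at 1.52 and 3.14 CPM against 477 and 389.8 CPM. Both were low in Smart-seq2, in which neither library of either gene passed 4 CPM. Actb, which encodes beta-actin, was at 6946 and 7288 CPM against 3465 and 2633 CPM (1.22, SE 0.348, adjusted p = 0.0112), a call lost without SCRB-seq B (adjusted p = 0.114).

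Transcript length and base composition went with the size of the difference among protein-coding genes of little shared sequence. The median log2 fold change was −0.65 in 11 genes with a longest transcript of up to 500 nt and −0.09 in 236 genes of over 500 to 1000 nt. It was 0.58 and 0.64 in the 1188 and 3501 genes of over 1000 to 2000 and over 2000 to 4000 nt, 0.12 in the 3071 of over 4000 to 8000 nt and −0.49 in the 598 of over 8000 nt. The difference was thus most positive at middle lengths and negative at both ends, and among the longest transcripts 25 were higher and 100 lower. By GC content of the transcript the median rose from −0.09 at up to 42% to 0.61 at over 54%, and within transcripts of over 2000 to 4000 nt from 0.23 to 0.84. Genes whose longest run of A was 12 or more, of which there were 1091, had a median of 0.04 against 0.68 in 2735 genes with at most 5. Within transcripts of over 2000 to 4000 nt these medians were closer, at 0.48 and 0.87, with 0.36 for runs of 9 to 11. Across these 8605 genes Spearman's rho of the log2 fold change was −0.226 with length and 0.194 with GC content, while over all 14156 tested genes with a length rho with length was 0.326, of the opposite sign. Genes are not independent replicates and are measured in the same libraries.

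**Figure D2:**
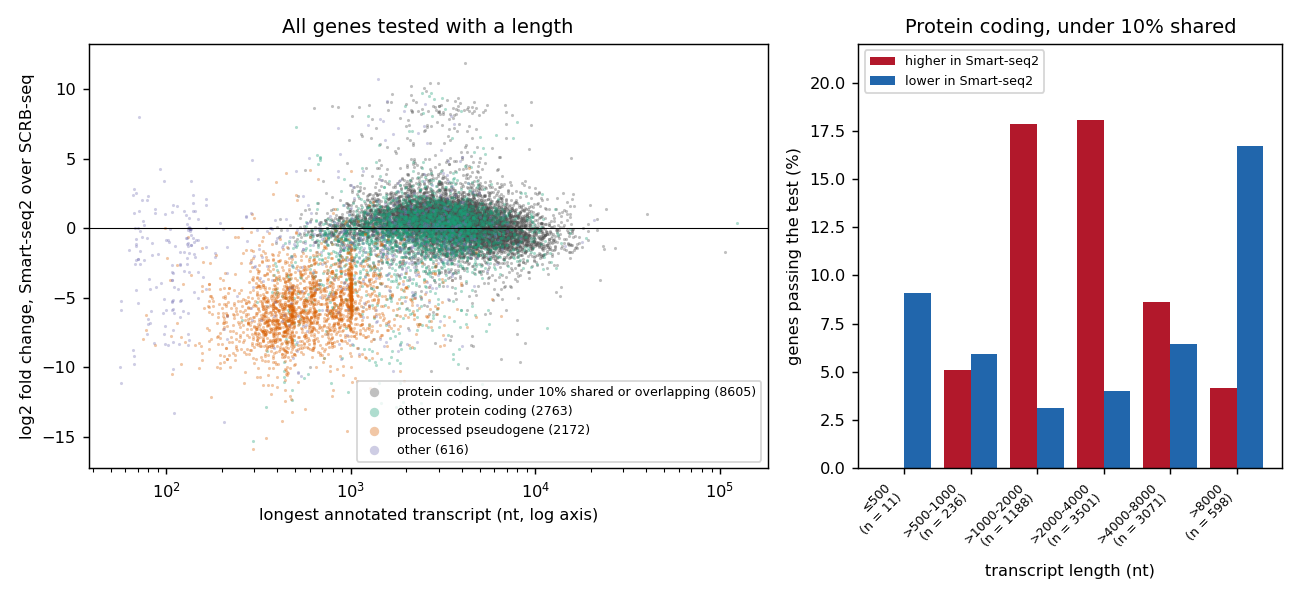
Left, log2 fold change of Smart-seq2 over SCRB-seq against the length of the longest annotated transcript (nt, log axis) for every gene tested that has a length, coloured by class. Right, the percentage of protein-coding genes of little shared sequence that passed the test in each direction by length, where genes higher in Smart-seq2 prevailed from over 1000 to 8000 nt and genes lower in Smart-seq2 above 8000 nt.

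Ribosomal protein genes, whose products build the 2 subunits of the cytosolic ribosome, were mostly lower in Smart-seq2. Of 85 tested, 66 were lower, 1 higher and 18 did not pass (median −2.42), and 53 of the 66 were lower in every fit with a library left out. Rps29, a protein of the small subunit, was at 19.3 and 14.4 CPM in Smart-seq2 and at 1153 and 1047 CPM in SCRB-seq (−6.03, SE 0.376, adjusted p = 1.10e-09). Fau, a fusion of a ubiquitin-like protein with ribosomal protein S30, was at 61.5 and 57.5 CPM against 2010 and 1843 CPM (−5.02, SE 0.350, adjusted p = 4.11e-09). Fau shares 52.1% of its 31-mers with the processed pseudogene Gm9843. Rpl4, of the large subunit, was at 3062 and 3200 CPM against 3955 and 3669 CPM and did not pass (−0.28, adjusted p = 0.575), and Rps2 was the 1 member higher in Smart-seq2 (2.29). The 10 members of little shared sequence had a median of −1.13, with 6 lower and none higher. With the length trend removed 24 members were higher and 36 lower (median −0.39), and the call of Rps29 was lost.

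Translation factors did not follow the ribosomal proteins. Of 67 tested, 10 were higher and 12 lower, with a median of 0.11. Beside this list and the mitochondrial one below, 12.3% of protein-coding genes were higher and 8.94% lower, and 9.98% and 22.5% of all genes tested. The list also holds pseudogenes, of which Eif1-ps1 had the lowest value (−7.38, adjusted p = 4.81e-06). Eif3j1, a subunit of eIF3, was at 0.739 and 0.869 CPM against 129 and 137 CPM (−7.35, adjusted p = 4.48e-09) and shares 41.0% of its 31-mers with Eif3j2, which was at 5.36 and 6.31 CPM against 162 and 173 CPM (−4.84, adjusted p = 1.93e-08). Eif2s2, the beta subunit of eIF2, was at 476 and 444 CPM against 2723 and 2266 CPM (−2.44, adjusted p = 6.31e-06). Of 80 mitochondrial ribosomal proteins 8 were higher and 10 lower (median 0.06), and Mrpl15, at 462 and 493 CPM against 527 and 397 CPM, did not pass (adjusted p = 0.926).

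Replication-dependent histone genes, which package newly made DNA in S phase, were lower in Smart-seq2. Their mRNAs end in a conserved hairpin in place of a poly(A) tail. Of 45 tested none was higher and 32 were lower (median −3.57), and 19 of the 32 were lower in every fit with a library left out. A hairpin of 6 paired bases (first bases GG) around a loop of 4 bases (first bases TT), searched on the transcript strand in the last 100 bases of the longest transcript, was found in 17 of 14156 tested genes with a transcript (0.12%), all of them in this list. It is shown here with the paired bases in capitals for 2 nearly identical H2A genes and 2 H4 genes.
Hist1h2ap: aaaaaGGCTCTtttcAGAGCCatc
Hist1h2ao: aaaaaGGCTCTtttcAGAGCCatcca
Hist1h4b: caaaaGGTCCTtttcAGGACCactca
Hist1h4h: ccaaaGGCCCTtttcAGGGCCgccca
Hist1h2ap (chromosome 13, 21833026 to 21833507) was at 0.119 and 0 CPM in Smart-seq2 and at 469 and 305 CPM in SCRB-seq (−12.32, SE 0.701, adjusted p = 4.04e-10). Hist1h2ao was at 0.0238 and 0.140 CPM against 299.5 and 278 CPM (−11.64, adjusted p = 3.37e-10). Hist1h4b was at 0.262 and 0.252 CPM against 8.46 and 4.19 CPM (−4.56, adjusted p = 0.00893), and Hist1h4h at 1.38 and 1.29 CPM against 18.2 and 14.9 CPM (−3.62, adjusted p = 0.00976), and both of these H4 calls were lost in 3 of the 4 fits with a library left out. The 17 members with the hairpin in the annotated transcript had a median of −3.62 (13 lower) and the 28 without it −3.42 (19 lower). Hist1h4d, annotated with a transcript of 1138 nt, was at 34.97 and 24.1 CPM against 197 and 131 CPM (−2.47, adjusted p = 0.00137). With the length trend removed the median of the list was 0.72, with 7 higher and 9 lower. At such short lengths most genes behind the trend were processed pseudogenes, so this change of sign cannot be read as an effect of length.

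Replacement histones, whose mRNAs are polyadenylated, were split. Of 11, 1 was higher and 3 lower (median −0.08), beside 12.3% higher and 8.94% lower of protein-coding genes and 9.98% and 22.5% of all genes tested. H2afz, the variant H2A.Z, was at 56.6 and 62.7 CPM against 362 and 412 CPM (−2.70, SE 0.415, adjusted p = 6.12e-05), a call lost with the length trend removed, while H3f3b, which encodes H3.3, was at 828 and 912 CPM against 618 and 718 CPM and did not pass (0.38, adjusted p = 0.381). H2afz shares 61.5% of its 31-mers with Tmcc1. H3f3b shares 7.61% with the pseudogene Gm6485, the largest share with any 1 of 5 genes, and at least 10% over all genes. H1fx, a linker histone, was at 1.88 and 1.37 CPM against 38.3 and 53.03 CPM (−4.80, adjusted p = 4.34e-04). Among 9 high mobility group genes, which bind and bend DNA, 3 were lower and none higher (median −1.29). Hmgb2 was at 73.3 and 72.8 CPM against 654 and 802 CPM (−3.32, SE 0.391, adjusted p = 2.90e-06). Hmga2 was at 3.86 and 3.28 CPM against 37.4 and 10.2 CPM, and its call was lost without SCRB-seq A (adjusted p = 0.338) and without either Smart-seq2 library.

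Chromatin remodellers were lower in Smart-seq2 more often than higher. Among protein-coding genes 8.94% were lower and 12.3% higher, and among all genes tested 22.5% and 9.98%. The longest transcripts of the list had a median length of 7916 nt, and protein-coding genes of little shared sequence over 8000 nt also leaned lower (100 against 25 higher). With the length trend removed 4 remodellers were lower and 1 higher (median −0.42). Of 23 ATP-dependent chromatin remodellers 9 were lower and 1 higher (median −0.50), but when a library was left out only 1 to 6 were lower, and Smarca5 alone was lower in every such fit, at 70.8 and 72.6 CPM against 309 and 236 CPM (−1.93, SE 0.346, adjusted p = 2.90e-04). Chd1, which opens chromatin in embryonic stem cells, was at 57.4 and 48.4 CPM against 168 and 172 CPM (−1.68, adjusted p = 8.81e-04), with an adjusted p of 0.0592 without Smart-seq2 B. Smarca5 shares 29.1% of its 31-mers with the processed pseudogene Gm13135. Of 21 Polycomb genes 1 was higher and 3 lower (median 0.09). Suz12, a core subunit of the complex that writes a repressive methyl mark on histone H3, was at 54.2 and 53.9 CPM against 343 and 259 CPM (−2.48, SE 0.309, adjusted p = 5.71e-06). Its partner Mtf2 was at 413 and 462 CPM against 546 and 464 CPM and did not pass (−0.21, adjusted p = 0.697). Kdm6b, a demethylase of the same mark, was at 118.5 and 142 CPM against 34.3 and 18.6 CPM (2.30, adjusted p = 0.00130), within a list of 40 lysine methyltransferases and demethylases in which 4 were higher and 5 lower. Zfp57, a zinc finger protein that keeps DNA methylation at imprinted genes, was at 484 and 499 CPM against 71.2 and 50.2 CPM (3.02, SE 0.434, adjusted p = 2.97e-05).

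The genes that define naive pluripotency did not shift together. Of 40 tested, 13 were higher in Smart-seq2, 4 lower and 23 did not pass (median 0.33), beside 12.3% higher and 8.94% lower of protein-coding genes and 9.98% and 22.5% of all genes tested. Utf1, a chromatin protein of undifferentiated cells, was at 469 and 463 CPM in Smart-seq2 and at 109.9 and 109.8 CPM in SCRB-seq (2.09, SE 0.328, adjusted p = 7.68e-05). Nanog was at 843 and 865 CPM against 389.8 CPM in each SCRB-seq library (1.13, SE 0.2998, adjusted p = 0.00712), with an adjusted p of 0.0526 without SCRB-seq B and a lost call with the length trend removed. Pou5f1, which encodes Oct4, was at 422 and 351 CPM against 165 and 232 CPM (0.96, SE 0.323, adjusted p = 0.0287), a call lost without SCRB-seq A (adjusted p = 0.102), without Smart-seq2 A (0.135) or without Smart-seq2 B (0.0548). Sox2, the partner of Oct4, went the other way, at 121 and 96.1 CPM against 307 and 285 CPM (−1.45, SE 0.347, adjusted p = 0.00359), and its call was lost without SCRB-seq A (adjusted p = 0.108) or Smart-seq2 B (0.109). In all 3 core factors the libraries of the methods did not overlap. Zfp42, known as Rex1, was at 784 and 799 CPM against 802 and 647 CPM (0.13, adjusted p = 0.836), Esrrb at 143 and 161 CPM against 152 and 123 CPM (0.14, adjusted p = 0.792) and Klf4 at 47.6 and 33.1 CPM against 104 and 42.3 CPM (−0.86, adjusted p = 0.135), and in these genes the libraries overlapped. Sall4, a zinc finger factor of the same network, was at 465 and 477 CPM against 173 and 113 CPM (1.72, adjusted p = 0.00112). Only 5 of the 13 higher calls (Mybl2, Sall4, Nr0b1, Utf1 and Tcl1) and none of the 4 lower calls (Sox2, Klf2, Rif1 and Nr5a2) were made in every fit with a library left out. Among 9 genes of primed and formative pluripotency 1 was higher and 1 lower.

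Most signalling genes of the culture condition did not pass the test. The counts below stand beside 12.3% higher and 8.94% lower of protein-coding genes, and 9.98% and 22.5% of all genes tested. Of 14 genes of the LIF and STAT3 pathway 4 were higher and none lower (median 1.52), with 2 to 4 higher when 1 library was left out and 1 of them, Myc, higher in every such fit. Myc was at 52.5 and 72.5 CPM in Smart-seq2 and at 3.56 and 6.51 CPM in SCRB-seq (3.63, SE 0.757, adjusted p = 0.00112), and Tfcp2l1, a STAT3 target that sustains self-renewal, was at 439 and 462 CPM against 198 and 116 CPM (1.52, adjusted p = 0.00273, and 0.0588 without SCRB-seq B). Of 17 FGF and MEK genes 4 were higher and none lower (median 0.15), with 2 to 4 higher when a library was left out, among them the feedback inhibitor Spry2, at 92.4 and 130.2 CPM against 12.5 and 13.5 CPM (3.10, SE 0.480, adjusted p = 6.51e-05), and the kinase Map2k1, a target of the MEK inhibitor, at 183 and 179.7 CPM against 66.8 and 49.3 CPM (1.64, adjusted p = 0.00200). Etv5 was at 194 and 188 CPM against 169 and 151 CPM and did not pass. Of 17 Wnt genes 1 was higher and 4 lower (median −0.23), and 1 was lower in each fit with a library left out. The lower genes were led by the kinase Gsk3a, at 2.001 and 1.598 CPM against 30.7 and 25.1 CPM (−3.94, SE 0.718, adjusted p = 3.34e-04), with the effector Ctnnb1 at 228 and 209 CPM against 285 and 239.6 CPM (adjusted p = 0.589). Both overlap a gene on the other strand: Gsk3a shares 20.5% of its 31-mers with 9130221H12Rik and Ctnnb1 19.5% with Ulk4. Foxh1 was the 1 of 13 Nodal pathway genes that passed, at 53.03 and 51.6 CPM against 8.01 and 10.2 CPM (2.52, adjusted p = 0.00102).

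In the lists of DNA replication and of mitosis more genes were higher in Smart-seq2 than lower, and most did not pass. Protein-coding genes as a whole leaned the same way, with 12.3% higher and 8.94% lower, against 9.98% and 22.5% of all genes tested. Of 50 genes of G1/S and replication 17 were higher and 1 lower (median 0.77), with 8 to 20 higher when a library was left out, and 7 of the 17 were higher in every fit with a library left out. Ung, which removes uracil from DNA, was at 326 and 270.2 CPM against 76.1 and 64.7 CPM (2.08, SE 0.388, adjusted p = 4.19e-04). Slbp, the protein that binds the histone mRNA hairpin, was at 209 and 231 CPM against 41.4 and 65.1 CPM (2.05, adjusted p = 3.22e-04), and Rrm2, a subunit of ribonucleotide reductase, at 528 and 569 CPM against 172 and 181 CPM (1.64, adjusted p = 0.00132). The 1 lower gene, Fen1, shares 82.2% of its 31-mers with another gene. Of 56 genes of G2/M 14 were higher and 4 lower (median 0.33), with 4 to 10 higher when a library was left out, and 6 were called in every fit with a library left out (Plk1, Ccnb2, Kif22 and Tacc3 higher, Hmgb2 and Mki67 lower). Mki67, a proliferation marker, was at 54.5 and 38.9 CPM against 196 and 299.6 CPM (−2.41, SE 0.392, adjusted p = 1.10e-04), and Plk1, a mitotic kinase, at 239 and 238 CPM against 68.5 and 54.4 CPM (1.96, SE 0.414). The 2 genes thus had opposite signs in the same libraries. Top2a was at 377 and 351 CPM against 696 and 681 CPM and did not pass (−0.92, adjusted p = 0.0564).

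In the metabolic and stress lists more genes were higher in Smart-seq2 than lower, beside 1399 higher (12.3%) and 1016 lower (8.94%) of all protein-coding genes tested. With a library left out the number higher was 4 to 8 for glycolysis, 5 to 7 for p53 targets, 3 to 8 for the ATF4 response and 5 to 9 for antioxidant enzymes. Of 23 glycolysis genes 7 were higher and 2 lower (median 0.81). Slc2a1, a glucose carrier, was at 595 and 682 CPM against 108 and 132 CPM (2.41, SE 0.416, adjusted p = 1.98e-04), and Pfkl, a phosphofructokinase, at 392 and 444 CPM against 87.7 and 90.7 CPM (2.23, adjusted p = 2.55e-04). Gapdh, often used as a reference gene, was at 254 and 205 CPM against 22.2 and 37.7 CPM (2.94, adjusted p = 0.00116), while Mif, on a transcript of 600 nt, was lower (−1.599, adjusted p = 4.70e-04). Of 24 p53 targets 8 were higher and none lower (median 0.99), with Bax, which permeabilizes mitochondria in apoptosis, at 610.1 and 609.7 CPM against 105 and 90.7 CPM (2.64, SE 0.339, adjusted p = 7.97e-06), and Trp53 itself at 917 and 986 CPM against 144 and 210.3 CPM (2.42, SE 0.399, adjusted p = 1.22e-04). Of 23 genes of serine and glycine synthesis and the ATF4 response 7 were higher and none lower (median 1.01), including Sesn2 at 171 and 122 CPM against 17.8 and 19.07 CPM (2.99, adjusted p = 0.00123) and Shmt2 at 322 and 324 CPM against 89.4 and 76.3 CPM (1.96, adjusted p = 1.24e-04). Of 21 antioxidant enzymes 9 were higher and 2 lower (median 0.38). Hmox1, which degrades heme, was at 128 and 110.4 CPM against 6.68 and 18.1 CPM (3.27, adjusted p = 2.78e-04), and Gclm, a subunit of the first enzyme of glutathione synthesis, was lower at 60.9 and 64.4 CPM against 253 and 327 CPM (−2.21, adjusted p = 1.63e-04). Of 25 cholesterol synthesis genes 7 were higher and 1 lower (median 0.83), but leaving out a library gave 1 to 9 higher and no call was made in every such fit. Of 5 metallothionein and zinc genes 2 were lower. Mt2, at 514.1 and 514.5 CPM against 1421 and 620.1 CPM (−0.99, adjusted p = 0.0425), rested on SCRB-seq A, without which the value was 0.08 (adjusted p = 0.918).

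**Figure D3:**
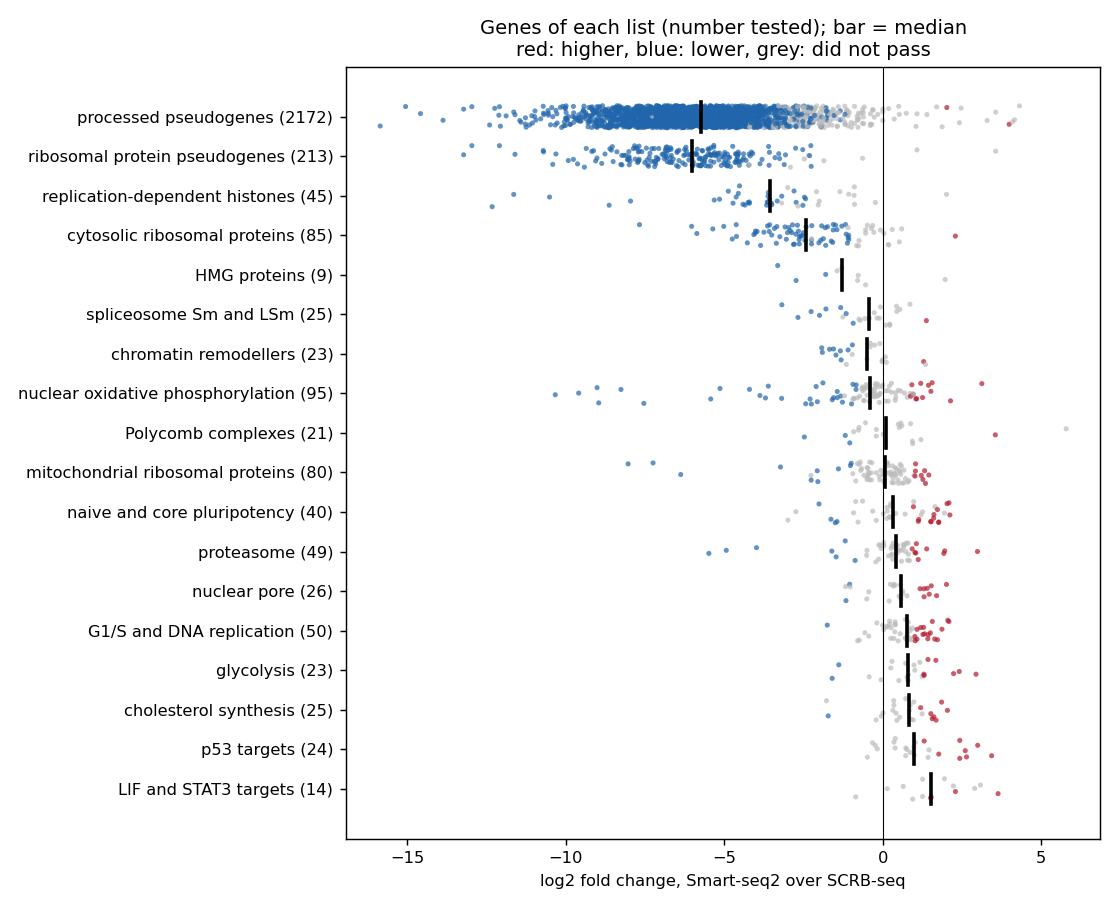
Log2 fold change of Smart-seq2 over SCRB-seq for every tested gene of 18 gene lists, with the number tested in brackets and the median as a bar (red higher, blue lower, grey did not pass). Processed pseudogenes (median −5.74), replication-dependent histones (−3.57) and ribosomal proteins (−2.42) lie to the left, and the list of LIF and STAT3 genes has the highest median (1.52).

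Genes of mitochondrial respiration, encoded in the nucleus and in the organelle, included calls in both directions. The background was 12.3% higher and 8.94% lower of protein-coding genes, and 9.98% and 22.5% of all genes tested. Of 95 nuclear genes of oxidative phosphorylation 12 were higher and 29 lower (median −0.40), and with the length trend removed 47 were higher and 13 lower (median 1.08), a median of the opposite sign. When a library was left out 5 to 10 were higher and 16 to 23 lower. The 4 higher in every fit with a library left out were Atp5b, Sdhc, Sdhd and Uqcrc1. Atp5b, the catalytic subunit of ATP synthase, was at 3414 and 3208 CPM against 1391 and 1390 CPM (1.25, SE 0.320, adjusted p = 0.00561). The lowest value belonged to Uqcrh-ps1, a pseudogene that the list also holds (−10.33, adjusted p = 1.11e-08). Cox6c2 was at 0.405 and 0.308 CPM against 195 and 174 CPM (−8.96, adjusted p = 9.02e-10), and Cox6c, with which it shares 61.7% of its 31-mers, was at 328 and 362 CPM against 737 and 591 CPM (−0.94, adjusted p = 0.0276). Ndufs6b was at 0.453 and 0.589 CPM against 104 and 93.0 CPM (−7.54, adjusted p = 1.33e-09). Of 9 tested genes of the mitochondrial genome 3 were lower and none higher. Among the 3, mt-Nd3 shares 98.1% of its 31-mers with 1 other gene and mt-Nd4l 98.9% with its nuclear copy Gm10222. The part of this shared sequence in their values was not tested. mt-Nd3 had 0 Smart-seq2 counts against 88.1 and 83.3 CPM (at least 2218-fold lower), as mt-Nd4l did, mt-Nd4 was at 1152 and 1155 CPM against 2872 and 3213 CPM (−1.40, adjusted p = 0.0293, lost in each of the 4 fits with a library left out), and mt-Nd1 was at 5496 and 5723 CPM against 3890 and 4616 CPM and did not pass (0.40, adjusted p = 0.681). The 2 mitochondrial ribosomal RNAs held 0.835% and 0.864% of the counts in Smart-seq2 and 3.58% and 4.44% in SCRB-seq.

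RNA processing, protein turnover and the cytoskeleton showed differences gene by gene. For comparison, 12.3% of protein-coding genes were higher and 8.94% lower, and 9.98% and 22.5% of all genes tested. Of 25 Sm and LSm genes, which encode small proteins of the spliceosome, 8 were lower and 1 higher (median −0.42), with Lsm7 at 9.24 and 11.7 CPM against 102 and 88.8 CPM (−3.19, SE 0.401, adjusted p = 6.33e-06). Of 38 SR and hnRNP splicing factors 3 were higher and 6 lower (median −0.23): Hnrnpa3 was at 7.03 and 6.08 CPM against 70.8 and 87.9 CPM (−3.59, adjusted p = 2.79e-06) and Hnrnpa2b1 at 1047 and 1215 CPM against 1072 and 1081 CPM (0.07, adjusted p = 0.890). Of 26 nuclear pore genes 8 were higher and 2 lower (median 0.56; 4 to 7 higher and none lower with a library left out), with the scaffold protein Nup93 at 236 and 261 CPM against 60.5 and 63.3 CPM (2.01, SE 0.344, adjusted p = 1.84e-04). Of 49 proteasome genes 9 were higher and 7 lower (median 0.43), and with a library left out 3 to 11 were higher and 2 to 5 lower. Psmd13, a lid subunit, was at 326 and 344 CPM against 40.0 and 44.7 CPM (2.98, SE 0.338, adjusted p = 1.85e-06), and Psme2b, a copy of an activator gene, at 0.5003 and 0.953 CPM against 33.8 and 32.1 CPM (−5.49, adjusted p = 4.69e-06). Of 17 ubiquitin and SUMO genes 3 were higher and 5 lower, with Sumo2 at 4.43 and 3.34 CPM against 183 and 263 CPM (−5.84, adjusted p = 1.34e-08), and 25.1% of its 31-mers occur in the pseudogene Gm10241. Of 25 actin and tubulin genes 7 were higher and 6 lower, and the largest rise was in Pfn1, which loads actin monomers, at 2129 and 2400 CPM against 213 and 268 CPM (3.23, SE 0.309, adjusted p = 2.15e-07). Hsp90aa1, the inducible form of Hsp90, was at 881 and 935 CPM against 4004 and 3286 CPM (−2.005, adjusted p = 4.73e-05), and its constitutive paralog Hsp90ab1 at 5303 and 5199 CPM against 4910 and 3921 CPM (0.25, adjusted p = 0.561). Hsp90aa1 shares 57.0% of its 31-mers with the pseudogene Gm12346, which was at 3.03 and 3.5 CPM against 547 and 695 CPM. Hsp90ab1 shares 6.10% with the pseudogene Gm6368.

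Genes of the two-cell-like state, a rare and transient state of embryonic stem cells marked by Zscan4, were found in SCRB-seq and hardly in Smart-seq2. The 18 genes summed to 1.91 to 3.64 CPM in Smart-seq2 and to 83.7 and 554 CPM in SCRB-seq, with Tdpoz1 and Tdpoz4 at 0 in all 4 libraries. Of 10 tested 4 were lower in Smart-seq2 and none higher (median −7.62), and none of the 4 was called in every fit with a library left out. Zscan4b was at 0.0238 and 0 CPM in Smart-seq2, at 33.4 CPM in SCRB-seq A and at 1.40 CPM in SCRB-seq B (−9.47, adjusted p = 0.00571, and 0.114 without SCRB-seq A). It had counts in 21 of 39 cells of SCRB-seq A, 2 of 45 of SCRB-seq B, 1 of 80 of Smart-seq2 A and none of 77 of Smart-seq2 B. These genes share most of their sequence with each other (91.5% of 31-mers for Zscan4c), and the single library dominates the sum. Imprinted RNAs were also uneven between the SCRB-seq libraries: Meg3 was at 41.2 and 52.99 CPM against 166 and 66.0 CPM (−1.30, adjusted p = 0.0209), and without SCRB-seq A the value was −0.14 (adjusted p = 0.855).

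Detection, the share of cells in which a gene had a count after every cell was thinned to 10000 counts, separated the methods as expression did. Of 10959 genes tested with limma on log2 odds, 1114 (10.2%) were detected in more Smart-seq2 cells and 1816 (16.6%) in fewer. Of the 1114, 874 were also higher in level and 240 were not called there, and of the 1816, 1765 were also lower. Bax had a count in all 157 thinned Smart-seq2 cells and in 28 of 39 and 27 of 45 SCRB-seq cells. Ruvbl2, an ATPase of several chromatin complexes, had a count in all 157 against 19 of 39 and 12 of 45, and Aamp, which has a role in cell migration, in all 157 against 19 of 39 and 22 of 45. Sephs2 was seen in 66 of 80 and 64 of 77 cells against 1 of 39 and 2 of 45, and Slc34a2 in all 157 cells against none. In the other direction the processed pseudogenes Gm12481, Gm8357, Gm8692, Gm9385 and Rpl36a-ps3 had a count in all 84 thinned SCRB-seq cells and in none of the Smart-seq2 cells, although without thinning Gm9385 reached 0.0477 and 0.280 CPM in Smart-seq2 against 839 and 799.6 CPM.

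Variation between cells, measured as the log2 squared coefficient of variation in thinned cells above its trend with the mean, passed the limma test in 3 of 2656 genes (0.113%), with 115 at an unadjusted p under 0.05, and all 3 were more variable in Smart-seq2. Lefty2, a secreted inhibitor of Nodal signalling, was 2.44 and 2.24 above the trend in Smart-seq2 and −0.01 and 0.77 from it in SCRB-seq (difference 1.96, SE 0.368, adjusted p = 0.00609). Its cells ranged from 0 to 2437 and 2821 CPM in Smart-seq2 A and B, around medians of 249.6 and 276 CPM, and from 49.4 to 697 and 71.4 to 820.3 CPM in SCRB-seq, around 216 and 313 CPM. The libraries had similar medians, and the Smart-seq2 cells reached lower and higher. A range widens with the number of cells, which was 80 and 77 in Smart-seq2 against 39 and 45 in SCRB-seq. Mt1, a metal-binding protein, was 2.47 and 2.63 above the trend against 1.03 and 0.54 (difference 1.77, SE 0.382, adjusted p = 0.0358), with cells from 2.07 to 4943 CPM in Smart-seq2 A and from 754 to 3671 CPM in SCRB-seq A. Ckb, brain-type creatine kinase, was 1.57 and 1.47 above the trend against −0.19 and 0.08 (difference 1.57, SE 0.355, adjusted p = 0.0438). High variation of Lefty2 and Mt1 was not confined to Smart-seq2. In CEL-seq2 A and B, libraries of another method of the study, Lefty2 was 2.06 and 1.36 above the trend and Mt1 1.90 and 3.40. Ckb was −0.12 and −0.67 from it there. None of the 3 passed edgeR's test of level (adjusted p = 0.282 for Lefty2, 0.0841 for Mt1 and 0.0966 for Ckb), which does not show equal levels. The median cell of Mt1 was at 675 and 574 CPM in Smart-seq2 and at 1621 and 892.5 CPM in SCRB-seq. For Ckb these medians were 867 and 670 CPM against 331 and 470 CPM. No gene passed without Smart-seq2 B or without SCRB-seq A, and 1 or 2 passed without the other libraries.

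**Figure D4:**
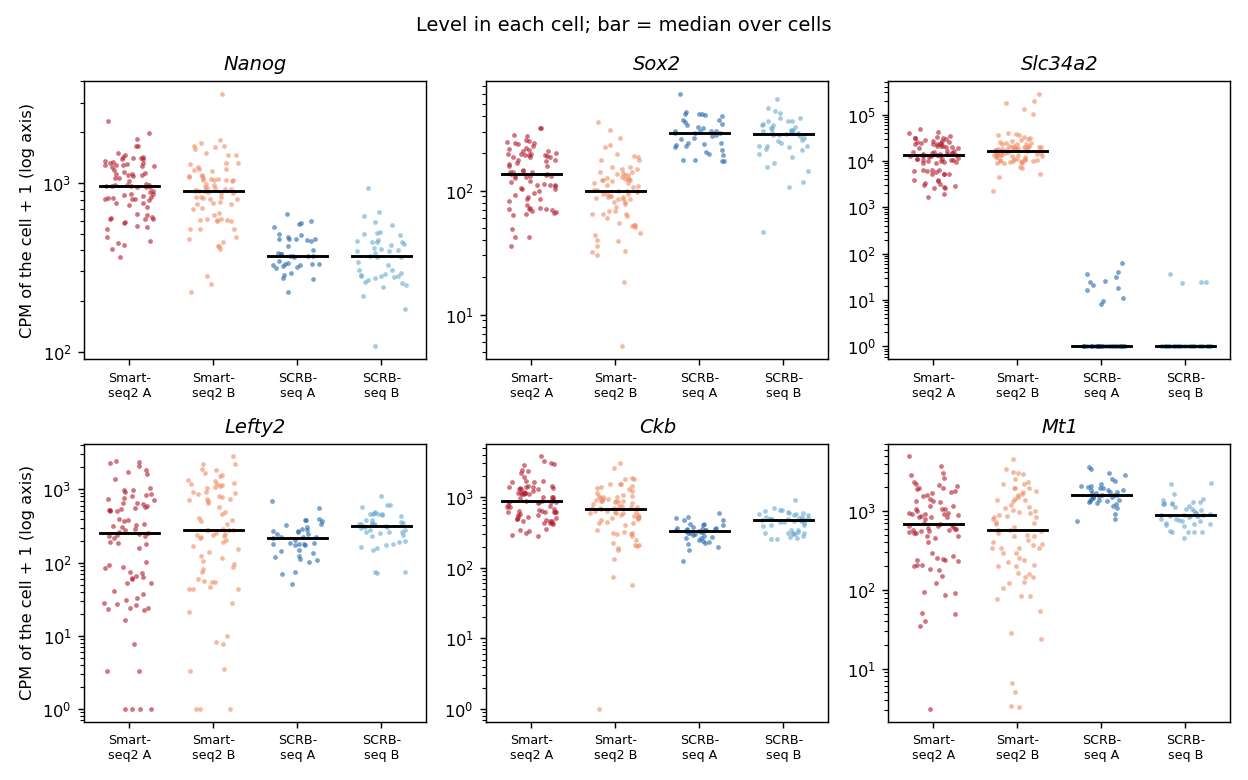
CPM of each cell (plus 1, log axis) for 6 genes in the 4 libraries, with the median as a bar. Nanog is higher and Sox2 lower in the Smart-seq2 cells, and Slc34a2 is at 1640 CPM or more in every Smart-seq2 cell. Lefty2, Ckb and Mt1 spread over a wider range in Smart-seq2, which has more cells, than in SCRB-seq.

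To see which differences are found with another pair of full-length and tag-counting methods, Smart-seq on the Fluidigm C1 chip (130 cells, a microfluidic system) was set against Drop-seq (76 cells, a droplet method with UMIs) in the same fit. These share no library with the comparison above. In that pair 2516 of the 14293 genes were higher (17.6%) and 3391 lower (23.7%) in the full-length method. Of the 3210 genes lower in Smart-seq2, 2509 (78.2%) were also lower in Smart-seq on C1, which is 74.0% of the 3391. Of the 1951 processed pseudogenes among them 1844 (94.5%) were lower in both pairs and none was higher in the C1 pair. Of the 1426 genes higher in Smart-seq2, 592 (41.5%) were higher in the C1 pair, which is 23.5% of its 2516, and 64 were lower. Among protein-coding genes of little shared sequence the agreement was 490 of 1146 higher (42.8%) and 127 of 489 lower (26.0%), with 73 of the 489 called in the opposite direction. The difference between the 2 pairs itself passed for 1014 genes (7.09%), of which 446 were more positive and 568 more negative in the Smart-seq2 pair, a split that became 544 and 402 with DESeq2's size factors. With 1 of the 8 libraries left out the number of such genes was between 303 and 2050, the highest without Smart-seq / C1 A and the lowest without Drop-seq B.

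Among the genes whose difference passed, some were far apart in 1 pair and close or opposite in the other. Slc34a2 was at 17.4 and 1.21 CPM in Smart-seq on C1 and at 28.6 and 107 CPM in Drop-seq, so that the difference between the pairs was 14.67 on the log2 scale (SE 1.85, adjusted p = 0.00361). Ptk7 was at 8.73 and 2.60 CPM on C1 and 6.61 and 27.5 CPM in Drop-seq (difference 7.45, adjusted p = 4.08e-04). Pou5f1 was at 36.3 and 42.4 CPM on C1 and 494 and 346.5 CPM in Drop-seq, opposite to its order in the Smart-seq2 pair (difference 4.38, SE 0.474, adjusted p = 1.15e-04), and Bax was at 103 and 59.3 CPM against 224 and 293 CPM, also opposite (4.30, SE 0.472, adjusted p = 1.15e-04). Psmd13 was at 47.2 and 44.3 CPM against 141 and 175 CPM (4.77, SE 0.468, adjusted p = 5.95e-05). Nanog did not differ beyond the spread between the pairs (difference 0.73, SE 0.422, adjusted p = 0.312), nor did Zfp42 (−0.65, SE 0.560, adjusted p = 0.523) or Sox2 (1.22, SE 0.484, adjusted p = 0.136).

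**Figure D5:**
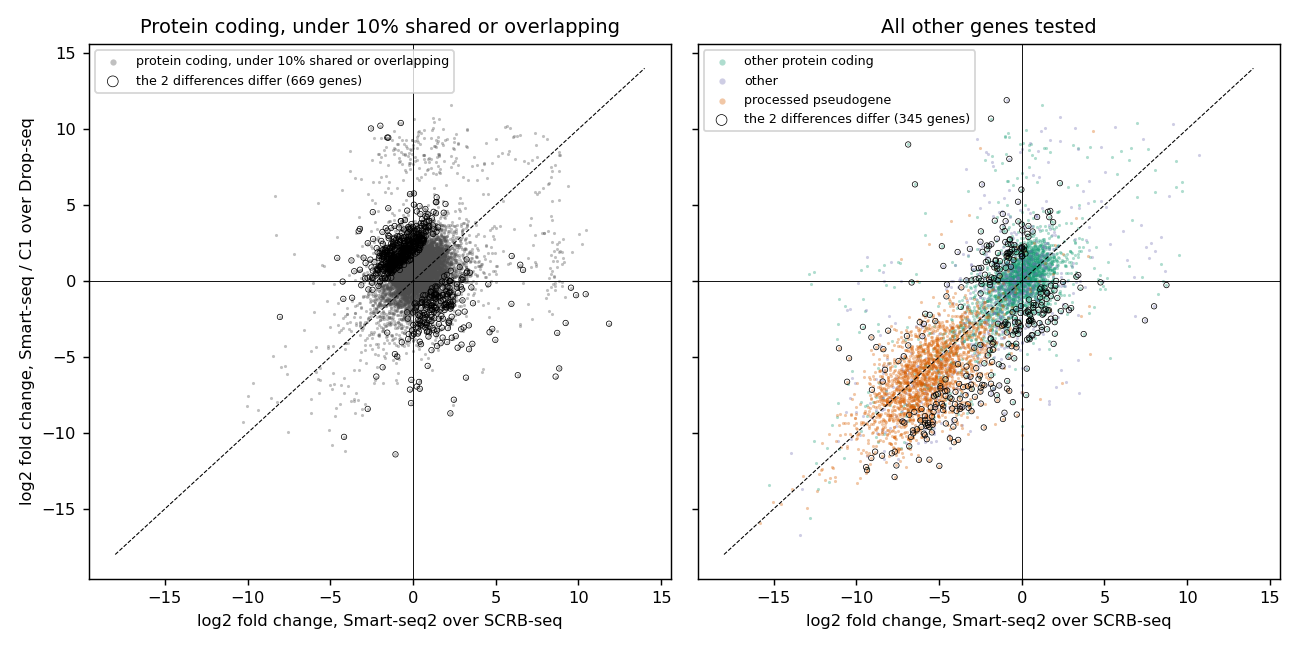
Log2 fold change of Smart-seq / C1 over Drop-seq against that of Smart-seq2 over SCRB-seq for protein-coding genes of little shared sequence (left) and all other genes tested (right), with the dashed line at equal values and circles where the 2 differences differ. Processed pseudogenes lie at low values in both pairs, and 669 and 345 genes are circled in the left and right panels.

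Spike-in RNAs showed smaller differences between the methods than genes did. Of 92 ERCC spike-ins, synthetic polyadenylated RNAs used as controls, 87 and 84 had a count in Smart-seq2 and 71 and 67 in SCRB-seq. They made up 11.1% and 10.3% of all counts in Smart-seq2 and 8.95% and 9.24% in SCRB-seq. Over the 33 with at least 50 counts in each library, the median absolute log2 ratio of shares between the methods was 0.353 (range −0.94 to 0.92), against 0.128 between Smart-seq2 A and B and 0.180 between SCRB-seq A and B. Over 3700 protein-coding genes of little shared sequence at the same minimum the median between the methods was 0.706. For the spike-ins the difference between methods was thus larger than that between libraries of a method.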

How the data were processed

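The deposited table holds counts per gene and cell, as the authors made them: all values are whole numbers for 38924 genes and 92 spike-ins in 583 cells. Reads were aligned with STAR 2.4.0 to mm10, per the submitters' processing notes. How reads or UMIs were assigned to genes, the annotation used and the treatment of multiply matching reads are not given in the sources used here. Per the labels, SCRB-seq counts are taken as UMIs and Smart-seq2 counts as reads. Gene identifiers were matched to GENCODE M21 (GRCm38), which held 37607 of them, and the 1317 others carried 0.297% of counts.

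Counts were summed per library. Of 26619 genes with a count, 14293 passed edgeR's filterByExpr, and edgeR 4.0.16 (R 4.3.3) was run on all 12 libraries with TMM scaling, robust quasi-likelihood tests and Benjamini-Hochberg adjustment over all genes tested, with a threshold of 0.05. Detection (log2 odds with an offset of 0.5) and variation in cells thinned to 10000 counts were tested with limma 3.58.1. DESeq2 1.42.0 and the other settings in the closing section were alternatives, and the fits were tested on simulated data. Spike-ins were kept out of library sizes. The common biological coefficient of variation was 0.418 with 6 residual degrees of freedom. The SE printed with an edgeR log2 fold change is its absolute value divided by the square root of the test's F statistic. It therefore restates the test and is not a separately fitted standard error. For variation the SE is that of limma.

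The gene lists and the comparison were chosen with earlier results of these data known, and lists are described by counts and medians without a set test. Genes named by rule were the 10 largest differences in each direction among called genes whose libraries did not overlap between methods (minimum mean log2 CPM 5), then for each list the 2 smallest p-values and the most abundant gene, 6 core pluripotency genes, and the 5 largest per direction for detection, variation and the difference between pairs. Other genes named (partners, host genes, further list members, Gm42418 and Gapdh) were chosen after their values were seen.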

Additional observations from a re-analysis of the deposited data

Results flagged for a closer look

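For 10 genes the Smart-seq2 to SCRB-seq difference departed from the difference between Smart-seq on C1 and Drop-seq by the test of that departure (edgeR's quasi-likelihood test, Benjamini-Hochberg adjusted), and these are the 5 largest departures in each direction among genes of sufficient abundance. CPM are given for libraries A and B of each method.

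Toward higher values in the Smart-seq2 pair, the departure was 14.67 on the log2 scale for Slc34a2 (adjusted p = 0.00361) and 7.45 for Ptk7 (adjusted p = 4.08e-04), with the values given above. Vps8, a vesicle tethering protein, departed by 6.40 (adjusted p = 4.08e-04): it was at 13.1 and 11.1 CPM in Smart-seq2 and 12.01 and 13.96 CPM in SCRB-seq, but at 5.36 and 13.97 CPM on C1 and 345 and 1412 CPM in Drop-seq. The 2 Drop-seq libraries stood apart from all others there. Acads, a mitochondrial fatty acid oxidation enzyme, departed by 6.30 (adjusted p = 1.33e-04), with 71.8 and 80.1 CPM against 6.23 and 8.37 CPM, and 2.56 and 3.68 CPM on C1 against 18.7 and 29.1 CPM in Drop-seq. Aldh2, which oxidizes acetaldehyde, departed by 6.22 (adjusted p = 5.95e-05), with 211 and 204 CPM against 37.8 and 31.2 CPM, and 7.26 and 3.94 CPM against 92.6 and 45.3 CPM. Acads and Aldh2 were high in Smart-seq2 and low on C1.

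Toward lower values, B830012L14Rik departed by −8.79 (adjusted p = 0.00412): it was at 2.36 and 4.21 CPM in Smart-seq2, 0.445 and 10.7 CPM in SCRB-seq, 193 and 163 CPM on C1 and 0 and 1.62 CPM in Drop-seq. Gm8357, a processed pseudogene, departed by −6.62 (adjusted p = 0.00916), with 0.167 and 0.393 CPM against 615 and 599 CPM, and 0.237 and 2.22 CPM against 25.3 and 25.9 CPM. Enc1, an actin-binding protein, departed by −5.90 (adjusted p = 0.00746), with 19.7 and 26.1 CPM against 21.4 and 30.7 CPM, and 403 and 2050 CPM against 8.82 and 40.5 CPM. Hist1h4d departed by −5.74 (adjusted p = 0.00164), with 34.97 and 24.1 CPM against 197 and 131 CPM, and 51.4 and 12.7 CPM against 2.20 and 4.86 CPM. Rian, an imprinted noncoding RNA, departed by −5.56 (adjusted p = 1.33e-04), with 20.5 and 21.3 CPM against 65.9 and 26.5 CPM, and 351 and 265 CPM against 14.3 and 14.6 CPM. B830012L14Rik, Enc1 and Rian were thus highest on C1.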

How the results depend on the processing

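Counts of genes moved most with the genes and libraries that entered the fit. With only the 4 libraries 3117 genes were higher. Thinning libraries to the shallowest gave 2926 calls (835 higher and 2091 lower), limma on mean log2 CPM 2628 higher and 2006 lower, and removal of the length trend 1789 lower. Only protein-coding genes gave 1855 calls (730 and 1125) and only genes of little shared sequence 1510 (655 and 855), both chosen after seeing the data, as were the fits of the difference and the C1 pair without a library and with the replicate block. A loess span of 0.75 gave 6 genes with different variation. The cause of these shifts was not tested. Fits without a library tested fewer samples, with the lone library assumed to vary like the others: calls ranged from 2590 to 3950 (higher 651 to 1401, lower 1877 to 2622), for detection from 1741 to 2356 (higher 354 to 817, lower 1358 to 1539), for variation from 0 to 2, for the difference between pairs from 303 to 2050 (higher 186 to 957, lower 102 to 1093) and for the C1 pair from 4147 to 6653 (higher 1549 to 3186, lower 2596 to 3467). With the length trend removed the sign turned for Dppa5a (3.52), Hspe1 (0.69), Lgals1 (2.79), Lsm4 (1.43), Mt1 (1.12), Mt2 (3.98), Psmb6 (2.33) and Rps27l (4.09), and without SCRB-seq A for Mt2 and Rian (ranges without a library −1.41 to 0.0772 and −1.60 to 0.00115). Of 126 named genes called, 101 were called without any 1 library. The counts of the SCRB-seq libraries limit how small a share can be seen in them.

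The letters A and B did not pair libraries across methods: correlations of deviations for 15 pairs of methods ran from −0.08 to 0.08. A fit with the replicate block gave 4517 calls (1416 higher and 3101 lower), 2924 for detection, 4 for variation, 912 for the difference and 5704 for the C1 pair.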
